A study of Mus musculus with 10 samples.

Results

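The signal transducers and activators of transcription (STATs) are the transcription factors that carry cytokine signals from receptors at the cell surface to the nucleus. The genes Stat2, Stat3, Stat4, Stat5a, Stat5b and Stat6 were taken by their symbols from a table of 17171 genes, which gave 6 members. The table holds RNA levels of the PyMt line, mouse breast cancer cells derived from tumors of MMTV-PyMt transgenic mice (PyMt tg), in which a promoter active in mammary epithelium drives the polyoma middle T oncogene. Cells were cultured with supernatants of CD4+ T cells and sequenced in 10 libraries, 6 from test supernatant, tagged Test1, Test2 and Test3, and 4 from control supernatant, tagged Control and Blank, with 2 libraries per tag. Per the labels, supernatants came from T cells of Tslp-PyMt tg mice (test) and of Tslp-PyMt tg mice without the TSLP receptor (Tslpr KO) or PyMt tg mice (control), and the culture protocol also names medium without supernatant. In the study's methods the Tslp transgene is K14-Tslp, expressed from a keratin promoter, and the T cells were sorted from tumors and their draining lymph nodes and stimulated with antibodies to CD3 and CD28 plus TSLP. The study's legends give every control library as Tslpr KO supernatant and every test library as supernatant of TSLP-activated wild-type T cells, which covers Blank as well as Control. Neither source explains the tag Blank or the numbers of the Test tags, or says whether the 2 libraries of a tag came from separate cultures. Blank and Control libraries are therefore given apart. The limma p-values between label sets rest on the spread between the 2 libraries of a tag, part or all of which may be technical. Those of test against all control libraries rest on a spread that also holds differences between tags. All cells are of 1 line, so no difference between tumors is measured.

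STAT proteins wait in the cytoplasm until a cytokine receptor and its Janus kinases (JAKs) phosphorylate them on tyrosine, after which they pair, enter the nucleus and bind DNA. STAT2 acts with IRF9 and a partner STAT in the complex ISGF3, which binds the interferon-stimulated response element (ISRE), whereas the other members bind as dimers to gamma-activated sites (GAS). STAT3 carries signals of the interleukin 6 (IL-6) family, STAT4 those of IL-12 in T and NK cells, STAT5A and STAT5B those of prolactin, growth hormone and many colony-stimulating factors, and STAT6 those of IL-4 and IL-13. In the mammary gland STAT5 proteins are needed for milk-producing alveoli and STAT3 for involution after lactation. The values below are RNA levels and say nothing of phosphorylation.

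Levels were deposited as FPKM, the number of sequenced fragments scaled by transcript length and by the size of the library, so that levels of different genes are compared per length of transcript. FPKM summed to 419709 to 487591 in test libraries, 425808 to 425896 in Control libraries and 414783 to 416680 in Blank libraries. The spacing of low values in 5571 genes put depth at about 10.7 to 14.7 M fragments per library (M, mega), an estimate, since read totals are not given. Of 12 mammary epithelial markers 11 were in the table and 8, among them Epcam, Cdh1, Krt8 and Krt18, averaged at least 1 FPKM. Their summed level was 1254 to 3111 FPKM in test libraries, 2907 to 2939 FPKM in Control libraries and 1398 to 1480 FPKM in Blank libraries, and its part in the results below was not tested. Of 11 CD4+ T cell markers 4 were in the table, with a sum of 2.39 to 16.9 FPKM in test libraries, 2.40 to 4.87 FPKM in Control libraries and 1.12 to 2.36 FPKM in Blank libraries. Cd3d alone of these averaged at least 1 FPKM. In bulk RNA, fewer cells that express a gene and less RNA per cell cannot be told apart.

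The members lie on 3 chromosomes of the mouse genome (RefSeq, GRCm38.p6). Stat2 (gene number 20847) spans chr10:128270498-128292853 on the plus strand, and Stat6 (gene number 20852) lies on the same chromosome at chr10:127642955-127660987, also on the plus strand. Stat5b (20851, chr11:100780731-100859004, minus strand), Stat5a (20850, chr11:100859351-100885169, plus strand) and Stat3 (20848, chr11:100886806-100939594, minus strand) are neighbors on chromosome 11. Stat4 (20849) spans chr1:51987106-52107189 on the plus strand. The starts of the RefSeq spans of Stat5b and Stat5a are 346 bases apart. GENCODE puts the starts further apart, at chr11:100850724 for Stat5b and chr11:100859351 for Stat5a. Transcripts of both genes share 608 stretches of 50 bases, 15.6% of those of Stat5a and 11.1% of those of Stat5b. Reads there could be split between both genes. No other pair of members shares such a stretch. The ends of Stat5a and Stat3 are 1636 bases apart in RefSeq but overlap by 72 bases in the GENCODE annotation. Whether counting used the strand is not given in the sources used here, so reads in this overlap could go to either gene.

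Up to 250 bases before the RefSeq span of the gene are shown for Stat2 and Stat3, the members whose level differed between label sets, and for Stat6, an abundant member whose level did not pass that test, 5′ to 3′ along the gene. Capitals mark matches on either strand to the core of the ISRE, GAAA and GAAA with any 2 bases between them, or to GAS, TTC and GAA with any 3 (shorter form) or any 4 bases (longer form) between them. The stretches are chr10:128270248-128270497 (250 bases, plus strand) for Stat2, chr11:100939595-100939790 (196 bases, minus strand) for Stat3 and chr10:127642736-127642954 (219 bases, plus strand) for Stat6. The 250-base windows searched end at the start used in the RefSeq promoter set, which for Stat3 and Stat6 lies 54 and 31 bases inside the span, and those bases are not shown.
Stat2: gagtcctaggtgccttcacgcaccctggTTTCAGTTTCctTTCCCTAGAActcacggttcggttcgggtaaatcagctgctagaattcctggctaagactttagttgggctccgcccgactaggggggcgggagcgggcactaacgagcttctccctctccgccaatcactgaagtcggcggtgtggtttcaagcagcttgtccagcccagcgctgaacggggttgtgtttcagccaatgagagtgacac
Stat3: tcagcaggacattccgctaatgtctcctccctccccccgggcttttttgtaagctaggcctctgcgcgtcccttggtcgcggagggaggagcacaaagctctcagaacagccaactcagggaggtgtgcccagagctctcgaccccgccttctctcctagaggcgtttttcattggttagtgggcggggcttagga
Stat6: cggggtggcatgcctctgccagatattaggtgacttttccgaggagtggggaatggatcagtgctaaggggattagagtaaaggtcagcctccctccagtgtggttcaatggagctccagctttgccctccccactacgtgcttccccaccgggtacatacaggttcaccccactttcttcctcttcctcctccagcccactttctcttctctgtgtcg
In the Stat2 window an ISRE core on the other strand, TTTCAGTTTC as printed, lies 222 to 213 bases before the start, and the longer GAS form, TTCCCTAGAA, lies 210 to 201 bases before it. Neither the Stat3 nor the Stat6 window holds any of these letters. Among 32851 windows of 250 bases in that set, 2.98% hold the ISRE core, 7.02% the shorter GAS form and 5.85% the longer one. Across the 9 windows of the 6 members, 2 hold the ISRE core (1 of Stat2 and 1 of the 2 windows of Stat4), 0 the shorter GAS form and 1 the longer one. A match describes the letters only, and a window without one says nothing of the factor.

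Stat2 and Stat3 RNA was far lower in the Blank libraries than in the other libraries, and Stat4 was close to 0 throughout. No difference of Stat5a, Stat5b or Stat6 between label sets passed the tests below. Stat2, which encodes the ISGF3 subunit, had 25.91 and 25.97 FPKM in the Test1 libraries, 25.42 and 27.27 FPKM in Test2, 27.10 and 24.72 FPKM in Test3, 28.01 and 24.41 FPKM in Control, and 3.36 and 3.31 FPKM in Blank. The 8 libraries of the first 4 sets lay between 24.41 and 28.01 FPKM with test and Control values overlapping, and both Blank libraries lay far below them. Over all genes tested, 10.8% were higher in each of the other 8 libraries than in both Blank libraries, as were 2 of the 5 members tested, Stat2 and Stat3. Among genes above 0 in the same library, Stat2 stood at the 77.4th to 80.6th percentile in those 8 libraries and at the 36.6th to 37.9th percentile in Blank.

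Stat3, the IL-6 family effector, was the most abundant member outside the Blank libraries. It had 64.29 and 71.08 FPKM in Test1, 72.89 and 84.53 FPKM in Test2, 61.48 and 62.83 FPKM in Test3, 74.24 and 66.82 FPKM in Control, and 22.46 and 24.35 FPKM in Blank. Control values fell inside the range of the test libraries, and the Blank libraries lay below every other library.

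Stat6, the IL-4 and IL-13 effector, was the steadiest member. It had 30.82 and 31.08 FPKM in Test1, 30.77 and 33.16 FPKM in Test2, 30.37 and 32.39 FPKM in Test3, 38.26 and 30.57 FPKM in Control, and 35.38 and 34.28 FPKM in Blank. Both Blank libraries and 1 Control library lay above every test library, and the other Control library lay within the test range.

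The STAT5 genes were several times lower than Stat6. Stat5a had 5.37 and 8.05 FPKM in Test1, 4.90 and 5.44 FPKM in Test2, 4.37 and 5.76 FPKM in Test3, 6.21 and 5.05 FPKM in Control, and 4.85 and 3.86 FPKM in Blank. Its highest value was in a Test1 library and its lowest in a Blank library, and the sets overlapped. Stat5b had 8.30 and 8.13 FPKM in Test1, 6.99 and 9.04 FPKM in Test2, 6.93 and 7.51 FPKM in Test3, 10.5 and 8.45 FPKM in Control, and 8.18 and 8.77 FPKM in Blank. Of the 6 test libraries 4 lay below every control library, and the other 2 lay within the control range. Stat5b was higher than Stat5a in each of the 10 libraries, by a ratio of 1.01 to 2.27.

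Stat4, the IL-12 effector of T and NK cells, was listed at 0 in 7 of 10 libraries. It had 0.07 FPKM in 1 Test1 library, and 0.03 and 0.08 FPKM in the Blank libraries. By the depth estimate a single fragment of its 2982-base transcript is worth 0.0229 to 0.0312 FPKM, so these values stand for a few fragments. Stat4 did not reach the minimum for testing, at least 1 FPKM in at least 4 libraries, which 11169 genes and the other 5 members passed.

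**Figure D1:**
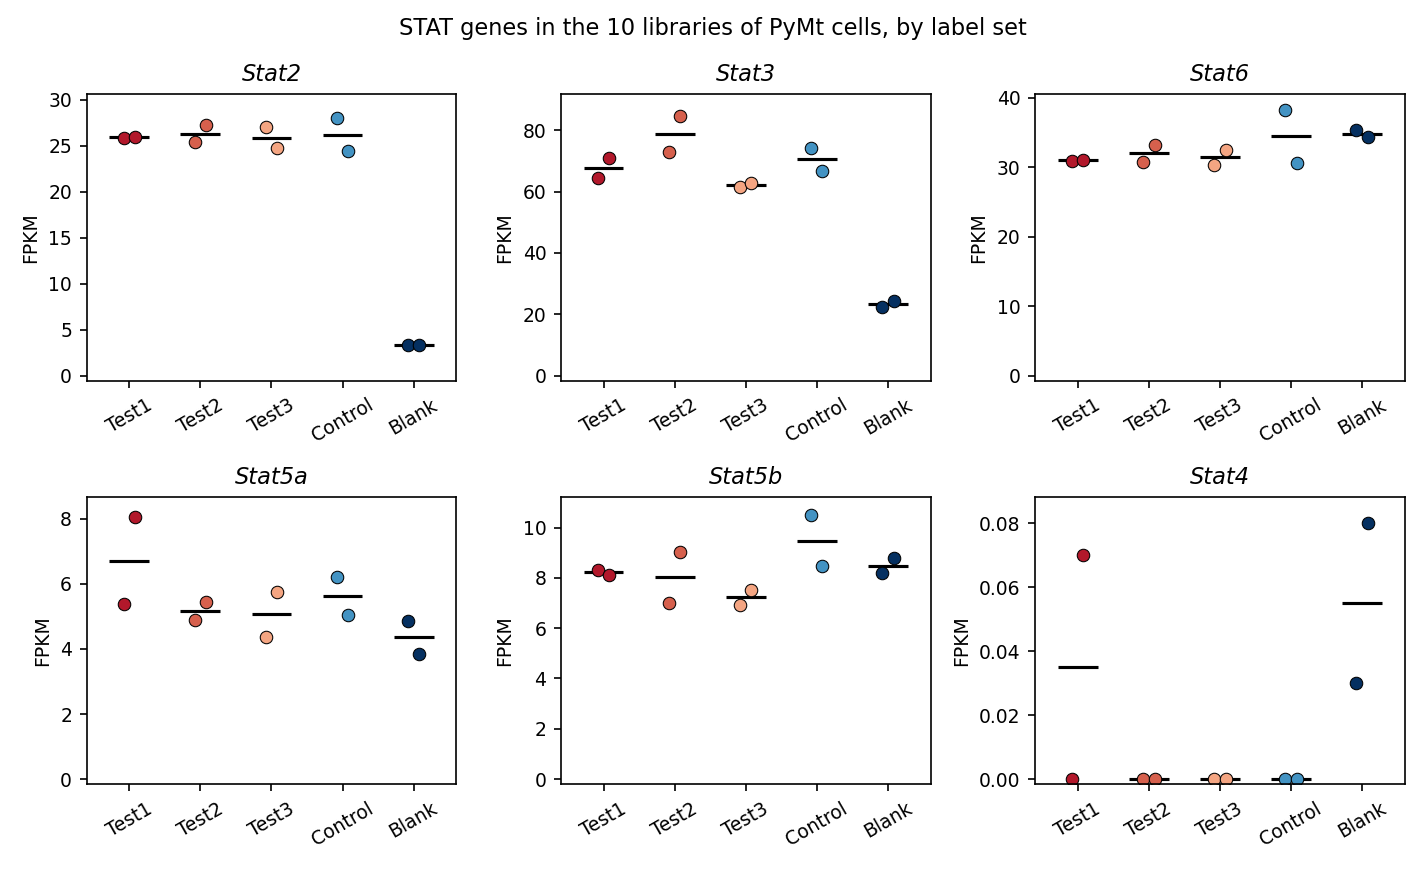
FPKM of the 6 STAT genes (vertical axes, linear from 0, each with its own range) by label set, with 1 point per library and a bar at the mean of the 2 libraries. For Stat2 the Blank points sit at 3.31 and 3.36 FPKM and all others between 24.41 and 28.01 FPKM, and for Stat3 at 22.46 and 24.35 FPKM against 61.48 to 84.53 FPKM.

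The question of the study was how test supernatant changes the cells relative to control supernatant. Set against all 4 control libraries, no member passed. Stat2 averaged 26.1 ± 0.978 FPKM in test (SD, n = 6) and 14.8 ± 13.3 FPKM in control (SD, n = 4), and Stat3 averaged 69.5 ± 8.67 FPKM in test and 47.0 ± 27.4 FPKM in control. The large SD of the control group comes from its 2 sets, which lie apart. On the log2(FPKM + 1) scale, which understates the change of low genes, test minus control was 1.32 for Stat2 (standard error 0.50, 95% interval 0.23 to 2.41, adjusted p = 0.128 from limma) and 0.75 for Stat3 (standard error 0.31, interval 0.08 to 1.42, adjusted p = 0.157 from limma). The differences were 0.14 for Stat5a (interval -0.19 to 0.48), -0.18 for Stat5b (-0.41 to 0.05) and -0.13 for Stat6 (-0.31 to 0.05), with adjusted p of 0.317 to 0.601 from limma. Thus 0 of 5 members tested were called at an adjusted p under 0.05, where 7.87% of all genes tested were called. At an unadjusted p under 0.05 limma called 2 of the 5, Stat2 and Stat3, and 25.3% of all genes tested. In no member did the test and control libraries fail to overlap, against 9.48% of all genes tested. Exact two-sided permutation tests of test against control ran over 210 assignments of single libraries, with a smallest possible p of 0.00476. The permutation p was 0.0714 for Stat2, 0.0857 for Stat3, 0.567 for Stat4, 0.424 for Stat5a, 0.0857 for Stat5b and 0.0571 for Stat6. These tests treat the 10 libraries as independent, although they come in 5 sets of 2, so their p-values may be too small. Without the first Control library, Stat2 and Stat3 were called (log2 differences 1.79 and 1.03, adjusted p = 0.0291 and 0.0364 from limma), as were 13.1% of all genes tested.

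When the test libraries were set against the Control libraries alone, the differences in Stat2 and Stat3 were close to 0. The following comparisons come from a limma fit of the 5 label sets, whose spread is that between the 2 libraries within a set. Mean of the test sets minus Control was -0.01 for Stat2 (95% interval -0.23 to 0.22, adjusted p = 0.988 from limma), -0.03 for Stat3 (-0.25 to 0.20, adjusted p = 0.937) and -0.01 for Stat5a (-0.38 to 0.36, adjusted p = 0.986). It was -0.25 for Stat5b (-0.53 to 0.04, adjusted p = 0.382 from limma) and -0.12 for Stat6 (-0.35 to 0.12, adjusted p = 0.654). In this comparison 0 of 5 members were called, against 3.61% of all genes tested (2% higher and 1.61% lower), and no member reached an unadjusted p under 0.05, which 16.4% of all genes did. The interval of Stat2 stayed within 0.23 on either side of 0, and that of Stat5b reached down to -0.53.

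Control libraries differed from Blank libraries in 2 members. Stat2 averaged 26.2 FPKM in Control and 3.34 FPKM in Blank, a ratio of 7.86, and Stat3 averaged 70.5 FPKM in Control and 23.4 FPKM in Blank, a ratio of 3.01. The log2 differences were 2.65 (standard error 0.12, 95% interval 2.38 to 2.92, adjusted p = 3.05e-07 from limma) and 1.55 (standard error 0.12, interval 1.27 to 1.83, adjusted p = 2.37e-05 from limma). Across all genes tested 5.94% were called in this comparison, 4.55% as higher and 1.39% as lower in Control. Stat5a (0.31, interval -0.15 to 0.77), Stat5b (0.14, -0.21 to 0.49) and Stat6 (-0.03, -0.31 to 0.26) were not called, with adjusted p of 0.462 to 0.941 from limma. Under the alternatives tried, Stat2 stayed between 2.55 and 2.93 and Stat3 between 1.48 and 1.63, and both were called in each of 14 settings (highest adjusted p = 0.000959 from limma). Settings that left out a test library, blocked on the library number or dropped the filter could change only the p-values, not these differences.

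The test sets shared these Blank libraries as a reference and gave values of similar size. Mean of the test sets minus Blank was 2.64 for Stat2 (95% interval 2.42 to 2.86, adjusted p = 2.93e-08 from limma) and 1.52 for Stat3 (1.30 to 1.75, adjusted p = 2.63e-06 from limma). By set, the difference from Blank was 2.64 (Test1), 2.66 (Test2) and 2.63 (Test3) for Stat2. For Stat3 it was 1.49 (Test1), 1.71 (Test2) and 1.37 (Test3). All 6 were called. For the mean of the test sets 24% of all genes were called, 10.3% as higher, and for the single sets 17.1% (Test1), 17.9% (Test2) and 20.8% (Test3). Stat5a (0.30, -0.08 to 0.67), Stat5b (-0.11, -0.39 to 0.18) and Stat6 (-0.14, -0.38 to 0.09) were not called. Stat5a in Test1 minus Blank had an unadjusted p under 0.05, as did 30.4% of all genes. It did not pass after adjustment (0.51, 95% interval 0.05 to 0.97, adjusted p = 0.123 from limma). The titles and the study's legends give Blank and Control alike as control supernatant, so the sources used here do not say in what the 2 sets differ.

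**Figure D2:**
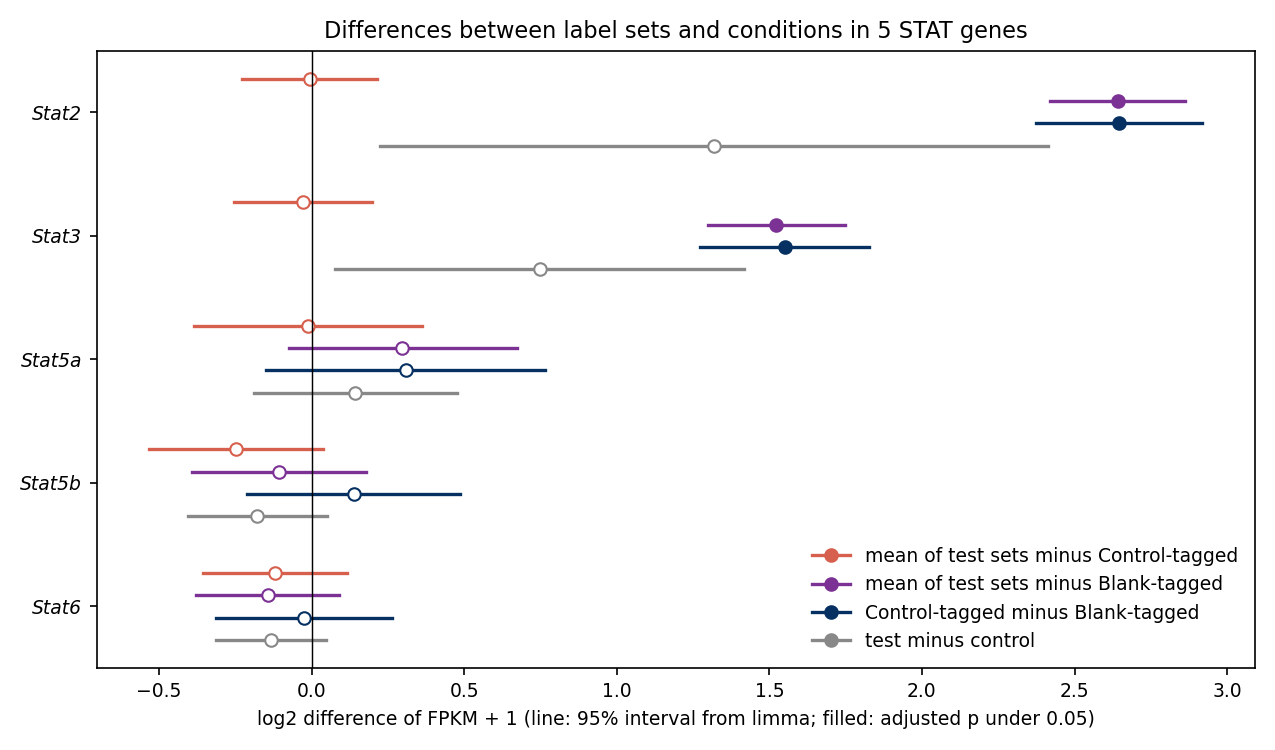
Differences of the 5 tested STAT genes on the log2(FPKM + 1) scale (horizontal axis) with 95% intervals from limma, for mean of test sets minus Control, mean of test sets minus Blank, Control minus Blank and test minus all control libraries. Filled points have an adjusted p under 0.05, which holds for Stat2 and Stat3 in the 2 comparisons with Blank, while their test minus Control points lie at -0.01 and -0.03.

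No member differed between the 3 test sets beyond the threshold. For Test3 minus the mean of Test1 and Test2, 0 of 5 members were called where 6.48% of all genes were, and the member with the lowest p was Stat3 (-0.23, 95% interval -0.47 to 0.01, unadjusted p = 0.0618 and adjusted p = 0.247 from limma). For Test1 minus Test2, 0 of 5 were called where 0.161% of all genes were. The widest interval in that comparison was that of Stat5a, 0.30 (-0.16 to 0.76). No member had an unadjusted p under 0.05 in either comparison, against 22.7% and 11.4% of all genes. Stat3 in Test2 minus Test3 had such a p, as did 25.3% of all genes, but did not pass (0.33, 95% interval 0.06 to 0.61, adjusted p = 0.137 from limma).

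Ordered by set means, Stat2 ran Test2, Control, Test1, Test3 and Blank, and Stat3 ran in the same order. For Stat2 the first 4 sets averaged 25.9 to 26.3 FPKM and their ranges overlapped. For Stat3 they averaged 78.7, 70.5, 67.7 and 62.2 FPKM, and Test1 and Test3 did not overlap but did not pass the test (0.12, adjusted p = 0.694 from limma). Stat5a ran Test1, Control, Test2, Test3 and Blank, Stat5b ran Control, Blank, Test1, Test2 and Test3, and Stat6 ran Blank, Control, Test2, Test3 and Test1. Of 20 pairs of neighbors in these orders 2 passed the test, Test3 against Blank for Stat2 (2.63, adjusted p = 1.81e-07 from limma) and for Stat3 (1.37, adjusted p = 3.03e-05 from limma). The orders were read from the same values.

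The make-up of the STAT transcripts differed between Blank and the other libraries. The 6 members summed to 130.2 to 159.4 FPKM in the test libraries, 135.3 to 157.2 FPKM in the Control libraries and 74.3 to 74.7 FPKM in the Blank libraries. Stat3 was the highest member in each test and Control library, with 47.2 to 53% of the sum, whereas in Blank Stat6 was highest with 45.9 to 47.6% and Stat3 had 30.2 to 32.6%. Stat2 made up 17.1 to 20.8% of the sum in test libraries, 17.8 to 18% in Control libraries and 4.43 to 4.52% in Blank libraries. Stat3 over Stat6 was 1.94 to 2.55 in test libraries, 1.94 to 2.19 in Control libraries and 0.635 to 0.71 in Blank libraries. From high to low the order was Stat3, Stat6, Stat2, Stat5b, Stat5a and Stat4 in the 8 test and Control libraries, and Stat6, Stat3, Stat5b, Stat5a, Stat2 and Stat4 in both Blank libraries. These shares use the same values as the tests above and add no independent evidence.

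**Figure D3:**
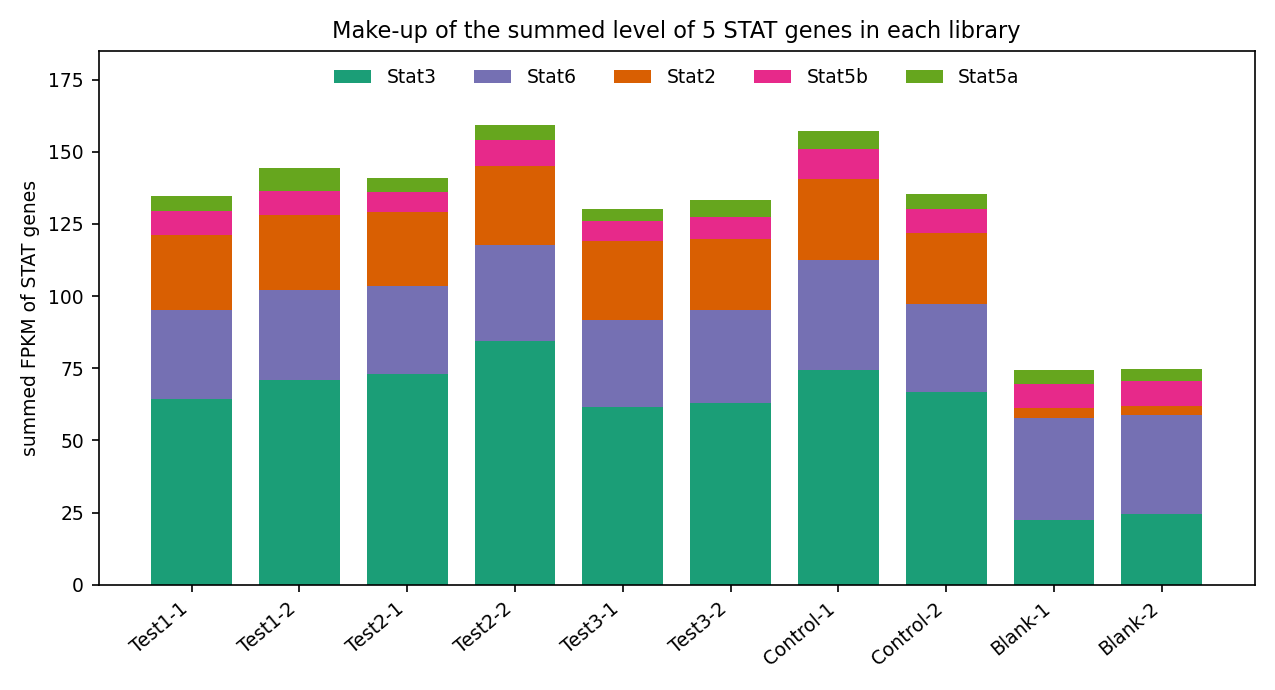
Summed FPKM of Stat3, Stat6, Stat2, Stat5b and Stat5a in each library (stacked bars from 0, 1 color per gene). The sum is 130.2 to 159.4 FPKM in the 8 test and Control libraries and 74.3 to 74.7 FPKM in the 2 Blank libraries, where the Stat2 segment is 4.43 to 4.52% of the bar.

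The genes whose profile over the 10 libraries was most like that of a member were found by the root mean square difference of log2(FPKM + 1) after removal of each gene's mean. For Stat2 they were Oasl2, an interferon-induced gene of the oligoadenylate synthetase family (0.087), Parp9, an interferon-induced ADP-ribosyltransferase gene (0.137), and Nod1, a sensor of bacterial peptidoglycan (0.160), against a median of 1.10 over all genes. Oasl2 averaged 36.9 FPKM in test, 36.5 FPKM in Control and 4.98 FPKM in Blank. For Stat3 they were Bcl6, a transcriptional repressor gene (0.098), Lhfpl2 (0.115) and Sfrp1, a secreted Wnt antagonist gene (0.116), against a median of 0.68. Bcl6 averaged 10.3 FPKM in test, 10.7 FPKM in Control and 3.07 FPKM in Blank. The nearest to Stat5a were Cluh, Traf3 and Heatr2 (0.098 to 0.109, median 0.33), to Stat5b Ogdh, Capn5 and Arfgef2 (0.065 to 0.067, median 0.27) and to Stat6 Ddb1, Kansl3 and Slc25a16 (0.052 to 0.056, median 0.24). The last 3 members vary little, so closeness to them sets few genes apart. All genes named here were picked as the closest, so their values lie below the median by selection. Oasl2 is also counted among the ISGF3 targets below and Bcl6 among the STAT5 targets, so those counts are not separate from these profiles. For Stat2 and Stat3 the median is near the SD of the member itself (1.12 and 0.66).

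**Figure D4:**
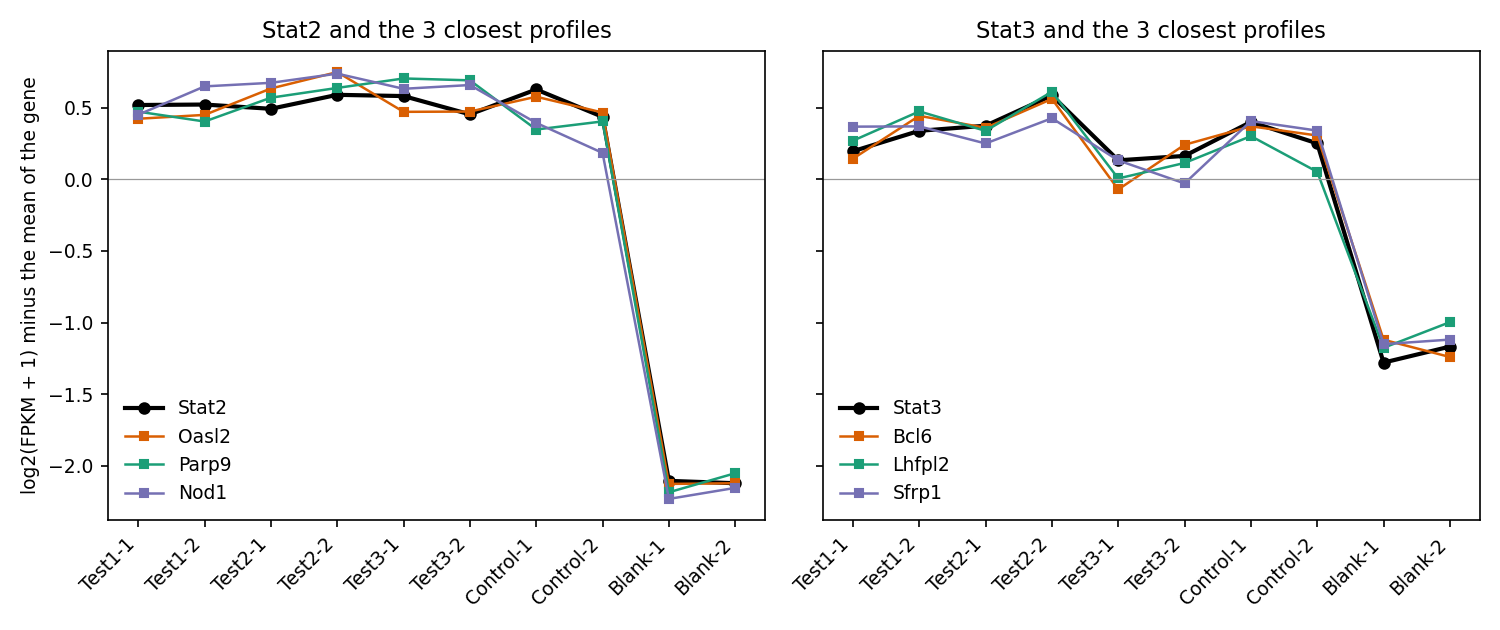
Profiles of Stat2 (left) and Stat3 (right) with their 3 closest genes over the 10 libraries, as log2(FPKM + 1) minus the mean of each gene (vertical axis), members in black. In both panels the 2 Blank libraries are the low points, and the root mean square difference to the member is 0.087 to 0.160 on the left and 0.098 to 0.116 on the right.

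The genes upstream of the STATs were described from lists of known pathway genes. Of 31 listed receptor chains 16 could be tested, and of 24 ligands 10. For targets these numbers were 20 and 17 (ISGF3), 24 and 19 (STAT3), 17 and 9 (STAT5), 20 and 8 (STAT6) and 10 and 4 (STAT4). A gene at 1 FPKM or more only in the 6 test libraries could be tested. One at that level only in the 2 Control libraries could not, which tilts counts of test sets minus Control toward higher. Beside the list counts here and below, 2% of all genes tested were called higher and 1.61% lower in the test sets than in Control. In Control minus Blank these shares were 4.55% and 1.39%. The 4 Janus kinases, which phosphorylate STATs, were all measured and none was called in any of test minus control, mean of test sets minus Control or Control minus Blank, by limma and also at an unadjusted p under 0.05, which 25.3%, 16.4% and 18.6% of all genes passed in these comparisons. Jak1 averaged 44.6 ± 4.29 FPKM in test (SD, n = 6), 46.7 FPKM in Control and 49.9 FPKM in Blank. Jak2 averaged 41.3 ± 12.5 FPKM in test, 35.1 FPKM in Control and 29.7 FPKM in Blank, while Jak3 and Tyk2 averaged 4.30 to 5.93 FPKM in every group.

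Of 16 receptor chains tested, 4 were higher and 1 was lower in the mean of the test sets than in Control, and 6 were higher and 0 lower in Control than in Blank. Medians of the list were 0.14 and 0.51 on the log2 scale, where all genes had -0.03 in both. Il13ra2, the decoy receptor of IL-13, averaged 47.2 ± 21.9 FPKM in test (SD, n = 6), 9.71 FPKM in Control and 0.78 FPKM in Blank, with log2 differences of 2.04 for test sets minus Control and 2.59 for Control minus Blank (adjusted p = 1.44e-05 and 1.83e-06 from limma). Il13ra1, the signaling chain, averaged 43.1 ± 5.83 FPKM in test, 28.1 FPKM in Control and 9.76 FPKM in Blank (0.60 and 1.43, adjusted p = 0.0192 and 0.00011 from limma). The first of these calls was lost without the first Control library (highest adjusted p = 0.217 from limma). The count of 4 higher was 2 without the first or without the second Control library, and the 1 lower was 0 without the first. The others called against Control were, chosen after their values were seen, Ifngr2 (0.40), Il4ra (0.97) and, lower, Il6ra (-0.67).

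Of 10 cytokine genes whose products signal through STATs, 6 were higher and 0 lower in the test sets than in Control, and 4 were higher and 0 lower in Control than in Blank. Il6, the ligand of the STAT3 receptor complex, averaged 39.95 ± 17.4 FPKM in test (SD, n = 6), 0.44 FPKM in Control and 0.92 FPKM in Blank, a log2 difference of 4.70 for test sets minus Control (adjusted p = 1.73e-08 from limma), and was not called for Control minus Blank (-0.42, adjusted p = 0.131 from limma). Its values reached the minimum for testing in the test libraries alone. The gene of granulocyte colony-stimulating factor, Csf3, averaged 176.9 ± 47.0 FPKM in test, 21.6 FPKM in Control and 5.08 FPKM in Blank (2.97 and 1.86, adjusted p = 0.000105 and 0.00367 from limma). Lif, of the IL-6 family, averaged 147.5 ± 25.3 FPKM in test, 51.4 FPKM in Control and 15.6 FPKM in Blank (1.497 and 1.652, adjusted p = 0.000134 and 8.47e-05 from limma). The 4 higher in Control than in Blank, named after their values were seen where not given above, were Lif, Csf3, Csf2 and Il15, and the count was 2 without the second Blank library.

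Among 18 inhibitors of the pathway, 3 were higher and 0 lower in the test sets than in Control, and 4 were higher and 1 lower in Control than in Blank. Socs3, the feedback inhibitor of IL-6 family receptors, averaged 84.5 ± 24.6 FPKM in test (SD, n = 6), 26.9 FPKM in Control and 5.94 FPKM in Blank (1.59 and 1.99, adjusted p = 0.000211 and 5.21e-05 from limma). Socs1, which blocks Janus kinases, averaged 62.6 ± 19.4 FPKM in test, 44.0 FPKM in Control and 2.42 FPKM in Blank (0.49 and 3.67, adjusted p = 0.475 and 0.000153 from limma). Cish, a target and inhibitor of STAT5 signaling, averaged 32.5 ± 8.78 FPKM in test, 14.0 FPKM in Control and 2.37 FPKM in Blank (1.15 and 2.13, adjusted p = 0.0216 and 0.000956 from limma). Socs2 averaged 18.2 ± 8.24 FPKM in test, 7.04 FPKM in Control and 12.9 FPKM in Blank (1.15 and -0.79, adjusted p = 0.000933 and 0.0151 from limma). The Cish call against Control was lost without the second Control library or either Test2 library (highest adjusted p = 0.182 from limma). The Socs2 call and that of Usp18 (1.35, adjusted p = 0.0173) for Control minus Blank were lost without either Blank library or the first Control library (highest adjusted p = 0.146 and 0.122 from limma).

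Of 12 nuclear partners and coactivators, 2 were higher and 0 lower in Control than in Blank. Irf9, the DNA-binding subunit of ISGF3, averaged 24.6 ± 2.32 FPKM in test (SD, n = 6), 26.2 FPKM in Control and 6.38 FPKM in Blank, with log2 differences of -0.08 for test sets minus Control and 1.87 for Control minus Blank (adjusted p = 0.828 and 3.76e-05 from limma). The other was Nmi, a STAT-interacting protein gene (1.31, adjusted p = 0.00038 from limma), chosen after its values were seen. In the test sets minus Control limma called 0 of 12, also at an unadjusted p under 0.05.

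Known target genes were described by the STAT that drives them, and a target on several lists counts on each. Of 17 targets of ISGF3, 0 were called by limma in the test sets minus Control (4 at an unadjusted p under 0.05, a threshold passed by 16.4% of all genes; median 0.01), and 11 were higher and 0 lower in Control than in Blank (median 1.33, against -0.03 for all genes). The 11 became 8 to 12 with any 1 library left out, and the 0 became 1, Usp18, without the first Test1 library. Usp18, an interferon-induced inhibitor of interferon receptors, averaged 8.21 ± 2.28 FPKM in test (SD, n = 6), 5.02 FPKM in Control and 1.36 FPKM in Blank.

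Of 19 targets of STAT3, 8 were higher and 0 lower in the test sets than in Control (median 0.43), where Stat3 itself was not called (-0.03), and 8 were higher and 0 lower in Control than in Blank (median 0.46). The first count was 5 without the second Control library, and the second was 4 without the second Blank or the first Control library. Against all 4 control libraries 10 were higher and 1 lower, where 7.87% of all genes were called either way. With any 1 library left out these became 7 to 11 and 0 to 1. Lcn2, an iron-binding protein of the acute phase, averaged 159.5 ± 79.9 FPKM in test (SD, n = 6), 21.4 FPKM in Control and 6.53 FPKM in Blank (2.71 and 1.57, adjusted p = 1.44e-05 and 0.000811 from limma). In all 6 test libraries Lcn2 lay at 79.1 FPKM or above, and the Control libraries had 23.6 and 19.2 FPKM.

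Targets of members that were not called in any comparison were also called in part. Of 9 targets of STAT5, 3 were higher in the test sets than in Control (Lif, Socs2 and Cish, given above), and 4 were higher and 1 lower in Control than in Blank, where the 1 lower, Socs2, was lost without either Blank or the first Control library. Of 8 targets of STAT6, 3 were higher in the test sets than in Control and 5 in Control than in Blank, with 0 lower in both, and the 3 became 1 without the second Control library. Against all 4 control libraries 4 STAT6 targets were higher and 1 lower, which became 2 to 5 and 0 to 1 with any 1 library left out. Tgm2, a transglutaminase gene on that list chosen after its values were seen, averaged 102.8 ± 10.0 FPKM in test (SD, n = 6), 77.3 FPKM in Control and 26.1 FPKM in Blank (0.41 and 1.53, adjusted p = 0.107 and 9.55e-05 from limma). Of 4 targets of STAT4, 1 was higher in the test sets than in Control, Il18rap, a chain of the IL-18 receptor, with 18.8 ± 3.09 FPKM in test, 9.93 FPKM in Control and 2.64 FPKM in Blank (0.84, adjusted p = 0.00552 from limma), a call lost without the first Control library (highest adjusted p = 0.0766 from limma). Of these 4, 2 were higher in Control than in Blank, Il18rap and, chosen after its values were seen, Furin, and 1 without either Blank or the first Control library. For the lists without a median above, median log2 differences of the test sets minus Control and of Control minus Blank were -0.02 and 0.20 for Janus kinases, 0.92 and 0.78 for ligands, 0.04 and 0.03 for inhibitors, and -0.09 and 0.13 for nuclear partners. They were 0.22 and 0.14 for STAT5 targets, 0.45 and 1.42 for STAT6 targets and -0.01 and 0.48 for STAT4 targets. Most of these targets also answer to other factors, so the counts do not measure STAT activity, and the lists were drawn up with earlier results of these data known.

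**Figure D5:**
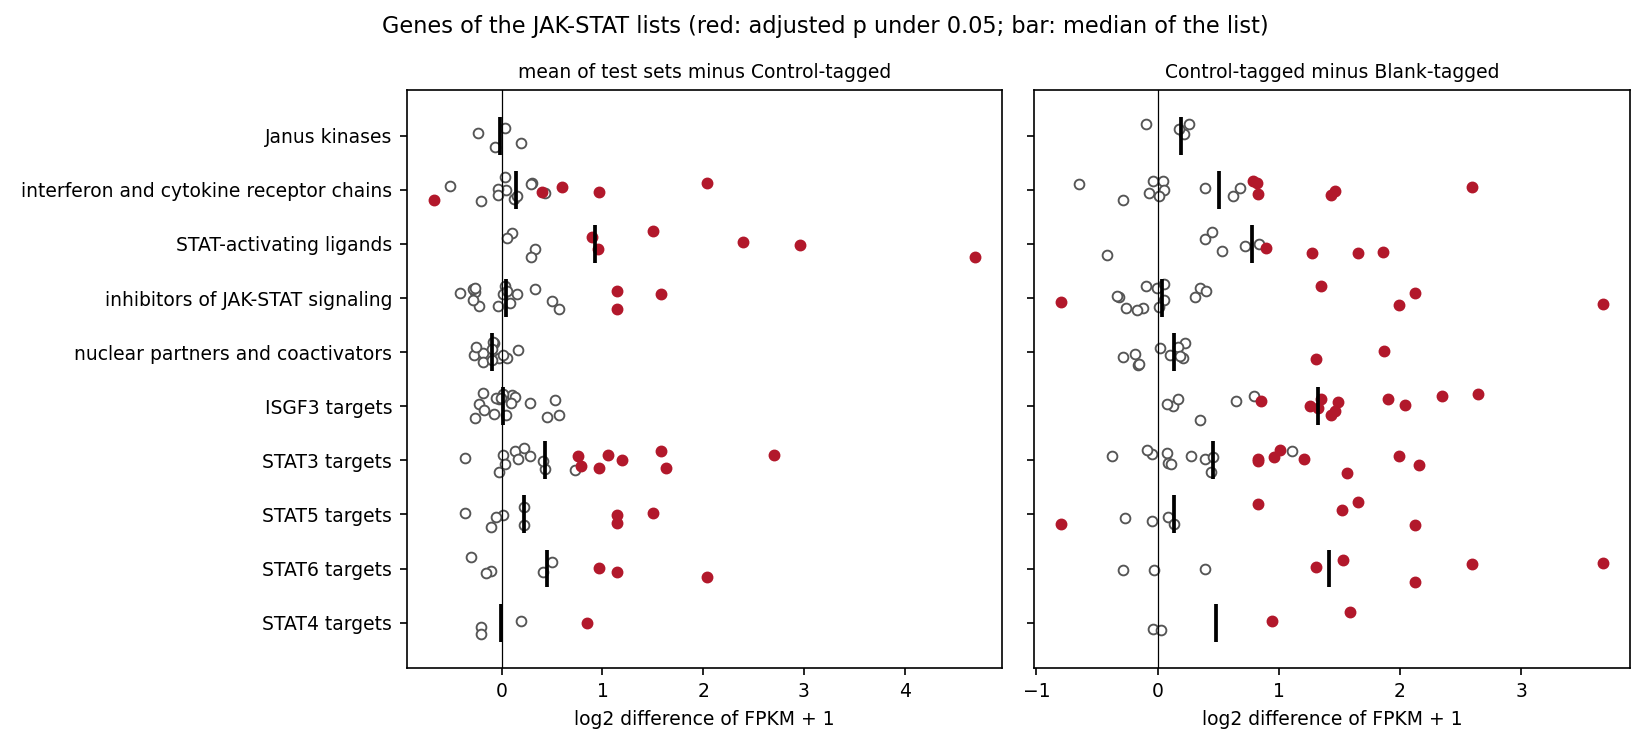
Log2 differences of FPKM + 1 (horizontal axes) of the tested genes of 10 JAK-STAT lists, 1 point per gene, for mean of test sets minus Control (left) and Control minus Blank (right). Red points have an adjusted p under 0.05 and bars mark list medians, which for ISGF3 targets are 0.01 on the left and 1.33 on the right.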

How the data were processed

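RNA of PyMt cells was measured in 10 libraries. According to the study's methods and the submitters' processing notes, BGI sequenced the libraries (Illumina HiSeq), and Bowtie aligned the reads to mm10. The authors deposited FPKM, 1 column per library with 2 decimals, and no column was left out. Not given in the sources used here were the program behind FPKM, the release of the RefSeq annotation and read filters. For differential expression the methods name tools for read counts (a Poisson method, Noiseq or EBSeq), and limma was used because the values are FPKM. A spreadsheet had turned 24 symbols into dates, which were restored from gene numbers.

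On the log2(FPKM + 1) scale, 11169 genes that reached 1 FPKM in 4 or more libraries were tested in R 4.3.3 with the package limma 3.58.1 (trended eBayes, two-sided, Benjamini-Hochberg over all tested genes, threshold 0.05), once for test against control and once with the 5 label sets as groups. The tests were tried on simulated data. No outcome of that trial is given here, so it says nothing of their error rates in these libraries. Single members also had an exact permutation test. Python 3.11.15, pandas 2.3.3 and matplotlib 3.10.9 served for tables and figures. Genes named by rule were all members, the Janus kinases, Irf9, Socs1, Socs2, Socs3, Cish, at most 2 called genes per list with the largest test minus control difference, and the 3 closest profiles per tested member. Ifngr2, Il4ra, Il6ra, Csf2, Il15, Nmi, Furin and Tgm2 were named outside this rule, after their values were seen. The members, the lists and this rule were chosen with earlier results of these data known, and a gene left out of the profiles is not reported here. Alternatives covered the pseudocount, the filter, quantile normalization, a block on the library number, the unit of replication, the control libraries used and each library or test set left out. Library numbers pair no samples by any label, and the deviations of same-numbered libraries correlated by more than 0.1 in 1 of 10 pairs of sets (-0.52 to 0.26), so they were not used as pairs. Promoter windows came from RefSeq (GRCm38.p6) and transcript lengths from GENCODE of the same genome build, and 17113 genes were matched by gene number.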

Additional observations from a re-analysis of the deposited data

Results flagged for a closer look

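Stat4 in the second Test1 library, at 0.07 FPKM, stood apart from the other 5 test libraries, which were all listed at 0. Against 5 values of 0 any value above 0 is flagged, and 0.07 FPKM stands for a few fragments. Tgm2, a gene on the list of STAT6 targets, had 84.13 FPKM in the first Test1 library, the lowest of the 6 test libraries and apart from the rest. These were 2 of 78 groups examined, the 6 test or the 4 control libraries of each gene checked. The cell type markers and Ifngr2, Il4ra, Il6ra, Csf2, Il15, Nmi and Furin, also named above, were not checked. For normal values chance sets a library apart in about 1 in 20 groups. That rate does not hold for values at 0 or for control groups whose Blank and Control sets lie apart.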

How the results depend on the processing

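Over the alternatives, 527 values and counts of the members kept direction and side of the threshold. Another 26 values changed sign, 4 passed the threshold only in the alternative, and 2 counts moved. Where a library left out was in neither set compared, the difference itself could not change. For the other genes and lists 1453 stayed and 134 counts moved. Of their values 70 no longer passed the threshold, 7 newly passed it and 2 changed sign. Members called for test minus control were 0 to 2 with each library left out, the 2 without the first Control library, where Stat2 was 1.79 and Stat3 1.03, and were 2 with only Blank libraries as control, chosen after the data were seen (2.64 and 1.52). With only Control libraries as control, Stat2 was -0.005, Stat3 -0.027 and Stat5a -0.010, and Irf9 was -0.082. In all of these the control libraries used differ. The counts of called members in the other comparisons did not move, with 2 in both comparisons against Blank and 0 elsewhere, and neither did the 2 of 20 neighboring sets.

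Small differences changed sign, none of them past the threshold, and the cause was not tested. With quantile normalization Stat5a was 0.049 for test sets minus Control, Stat2 0.006 and Stat6 0.015 for Test3 minus the mean of Test1 and Test2, and Stat2 0.001 for Test1 minus Test2. With single libraries left out, test sets minus Control ranged for Stat2 from -0.101 to 0.090, for Stat3 from -0.102 to 0.048, for Stat5a from -0.137 to 0.116, for Stat6 from -0.276 to 0.038 and for Irf9 from -0.254 to 0.089. Control minus Blank ranged from -0.003 to 0.280 for Stat5b and from -0.182 to 0.132 for Stat6. Test3 minus the mean of Test1 and Test2 ranged from -0.077 to 0.050 for Stat2 and from -0.049 to 0.042 for Stat6, and Test1 minus Test2 from -0.070 to 0.028 for Stat2, from -0.124 to 0.206 for Stat5b and from -0.097 to 0.008 for Stat6.

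The replicate block on the library number changed no call of a member (test minus control, Stat2 adjusted p = 0.168 and Stat3 0.199 from limma). Over all genes it called 222 higher and 332 lower for test minus control, against 330 and 549 without it. With the label set as the unit 0 genes were called either way, and with it as a random effect 152 higher and 150 lower. With only Control libraries as control 36 were higher and 8 lower, and with only Blank libraries 773 and 938. Sets of 2 libraries, FPKM without counts and the unexplained tag Blank limit what these data resolve, and values under about 0.1 FPKM rest on few fragments.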
